A study of Mus musculus with 4 samples.

Results

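Mural cells were sought among the single cells of EAE SCs by transcripts of 5 marker genes, and 967 of 26525 barcodes met the rule. Mural cells wrap the outside of vessels. Pericytes lie on capillaries within the basement membrane they share with ECs, are recruited by PDGF-B from ECs acting on the receptor encoded by *Pdgfrb*, and help to keep the blood-brain barrier tight, whereas smooth muscle cells surround larger vessels and contract. Central nervous system pericytes are known for *Kcnj8* and *Abcc9*, which encode subunits of an ATP-sensitive potassium channel, for *Rgs5*, a regulator of G protein signaling, and for *Vtn*, which encodes the adhesive glycoprotein vitronectin. Angiopoietin-1 and angiopoietin-2 (Ang2) are ligands of the endothelial receptor Tie2, and angiopoietin-1 is commonly attributed to pericytes.

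EAE, a model of multiple sclerosis, was induced in all mice with the myelin peptide MOG35-55 in complete Freund's adjuvant and pertussis toxin. In the first pair of libraries, C57Bl/6JOlaHsd mice of 15 weeks received control antibody (mIgG1) or an antibody that blocks Ang2 (Ang2 Ab) from the day of induction and were examined at 14 dpi. In the second pair, C57Bl/6JCrl mice of 12–14 weeks were examined at 12 dpi, and were either single transgenic littermates (Ctrl) or *EC-Ang2* mice, in which the *VE-cadherin* promoter drives a tetracycline transactivator (tTA) and so a Tet-OS–*Ang2* transgene in ECs. Viable CD45+ and CD31+ cells were sorted in equal numbers and captured with 10x Genomics 3′ v2 chemistry, giving 1 library for each condition. The sort holds no gate for mural cells, which lack CD45 and CD31, so their shares follow what passed the gates. The pairs also differed in toxin dose, so differences are given within each pair and levels of the other pair stand beside them only as values, and the number of animals behind a library was not given in the sources used here.

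The deposited unique molecular identifiers (UMIs, 1 for each captured transcript molecule) numbered 66631583 (mIgG1), 57954609 (Ang2 Ab), 52084739 (Ctrl), and 52796061 (*EC-Ang2*). Barcodes with at least 2000 UMIs, fewer than 10% of them from mitochondrial genes, were taken as cells (6995, 7488, 6627, and 5415 in the same order). Members had at least 10 UMIs of *Pdgfrb*, *Kcnj8*, *Abcc9*, *Rgs5*, and *Vtn* together and at most 2 UMIs of the leukocyte genes *Ptprc*, *Laptm5*, and *Coro1a*. They were described apart by the UMI sum of the endothelial genes *Cldn5*, *Cdh5*, *Egfl7*, and *Esam*. Cells with at most 3 such UMIs are called pure mural cells (66 cells), and the others carried endothelial RNA (901 cells). These transcripts chose the members, so their levels are a description. With a single library for each condition, differences between conditions had no test. The exact 95% intervals below take in counting error and say nothing of how mice vary. A level is the UMI sum of a gene or list in all cells of a class and library, scaled to 1000000 UMIs (CPM). Levels are not ranked between genes, since 3′ counting captures genes unequally.

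Pure mural cells were rare and found in all 4 libraries. The blockade pair held 19 mIgG1 cells (0.272% of cells, Clopper-Pearson interval 0.164–0.424%) and 22 Ang2 Ab cells (0.294%, 0.184–0.444%). The overexpression pair held 14 Ctrl cells (0.211%, 0.116–0.354%) and 11 *EC-Ang2* cells (0.203%, 0.101–0.363%). These intervals overlapped within both pairs, so no difference in the share of pure cells was detectable at this depth. Cells carrying endothelial RNA numbered 231, 245, 286, and 139 (3.30%, 3.27%, 4.32%, and 2.57%). Their intervals overlapped in the blockade pair (2.90–3.75% and 2.88–3.70%) but not in the overexpression pair, where Ctrl (3.84–4.83%) stood above *EC-Ang2* (2.16–3.02%), which was not tested across mice. These members were of different kinds, and their shares in that pair are given by kind below. The marker minimum cut few pure cells, as 1 barcode had 8 or 9 marker UMIs with at most 3 endothelial UMIs and 2 had 10 or 11. With more than 3 endothelial UMIs, 168 barcodes had 8 or 9 marker UMIs and 140 had 10 or 11, so that limit cut through a continuous range. At the endothelial limit, 22 members had 3 such UMIs and 14 had 4. The UMI minimum cut more of them, since 24, 37, 20, and 14 pure mural cells were found with a minimum of 1000 UMIs and 8, 5, 3, and 8 with 3000 (mIgG1, Ang2 Ab, Ctrl, and *EC-Ang2*). Libraries shared between 51 and 77 cell barcodes by pair, and no member's barcode was a member in another library.

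**Figure D1:**
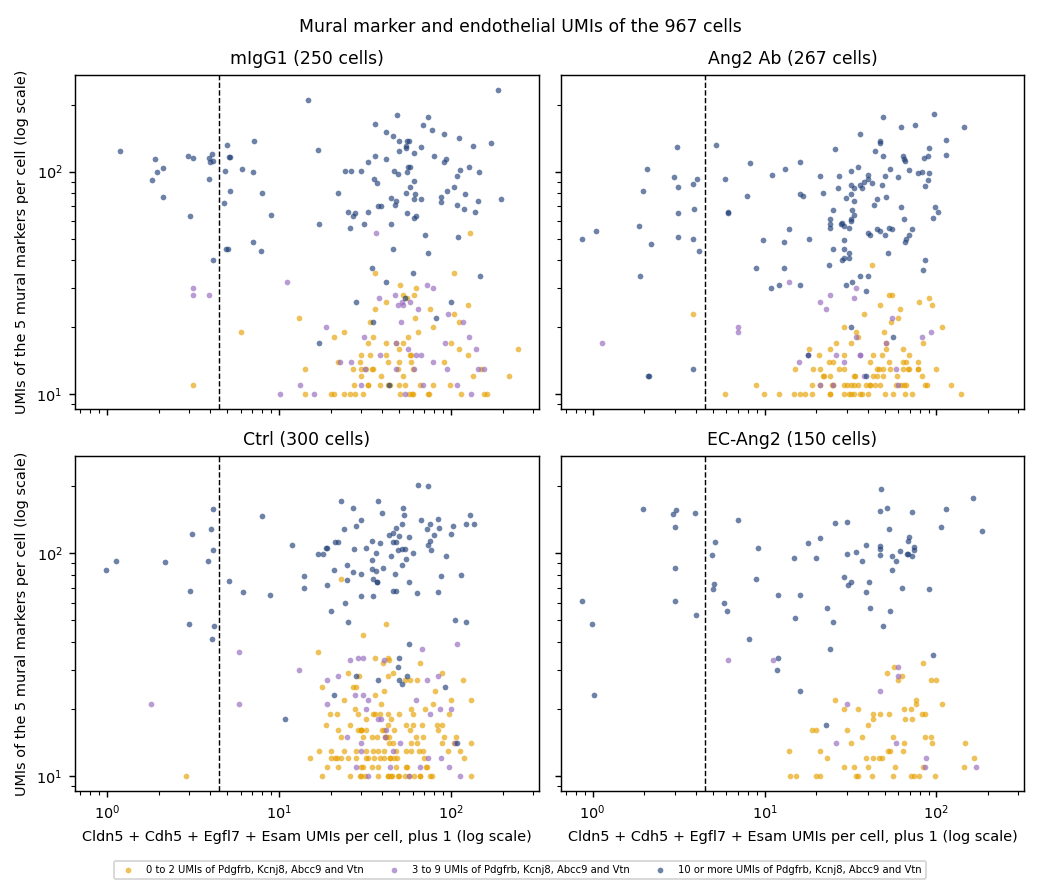
Each point is 1 of the members, placed by its UMIs of the 4 endothelial genes plus 1 (x axis, log scale) and of the 5 mural markers (y axis, log scale), in 1 panel for each library colored by its UMIs of the 4 markers other than *Rgs5*, with points shifted slightly sideways to keep them apart. Pure mural cells lie left of the dashed line, and the low-lying points right of it are mostly members with 0 to 2 UMIs of the other 4 markers.

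The pure cells carried the pericyte pattern beyond the genes of the rule. *Rgs5* and *Vtn* were each detected in 64 of 66 cells, *Pdgfrb* and *Kcnj8* each in 56, and *Abcc9* in 42. Median UMIs per cell in mIgG1, Ang2 Ab, Ctrl, and *EC-Ang2* were 70, 34, 52.5, and 61 for *Vtn*, 17, 11.5, 16, and 25 for *Rgs5*, and 6, 4, 4.5, and 8 for *Kcnj8*. Among pericyte genes outside the rule, *Higd1b*, a hypoxia-inducible mitochondrial protein gene, and *Ndufa4l2*, a mitochondrial respiratory chain–related gene, were each detected in 60 of 66 cells, and *Atp13a5*, a P-type ATPase gene, in 47. The smooth muscle genes *Acta2*, *Tagln*, and *Myh11* were detected in 10, 7, and 9 cells. Most pure cells thus held pericyte transcripts without these 3, whereas *Myl9*, a myosin light chain gene, was detected in 60 of 66, and every pure cell held some transcript of the contractile list.

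The genes that stood highest in pure mural cells over both endothelial and immune barcodes of the same libraries were *Mir143hg*, *Vtn*, *Pdgfrb*, *Slc6a20a*, *Kcnj8*, *Rgs4*, *Gucy1b3*, *Atp13a5*, *Meg3*, *Notch3*, *Vstm4*, *Aspn*, *Abcc9*, *Gm13889*, and *Gucy1a3*, of which *Vtn*, *Pdgfrb*, *Kcnj8*, and *Abcc9* are markers of the rule. Endothelial barcodes here had at least 10 UMIs of the 4 endothelial genes and at most 1 of the mural markers (10467 barcodes). *Mir143hg*, the host transcript of a microRNA pair known from smooth muscle, had 380 CPM in pure mural cells and 0.0159 in endothelial barcodes. *Notch3*, the Notch receptor of mural cells, had 370 and 0.159 CPM. *Gucy1a3* and *Gucy1b3* encode the subunits of the soluble guanylate cyclase that senses nitric oxide, *Rgs4* is a relative of *Rgs5*, *Slc6a20a* encodes an amino acid transporter, and *Meg3* is a noncoding RNA. Of 622 genes with at least 50 UMIs in pure mural cells, 76 stood at least 8-fold above both other classes, which follows from the selection and was not tested.

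**Figure D2:**
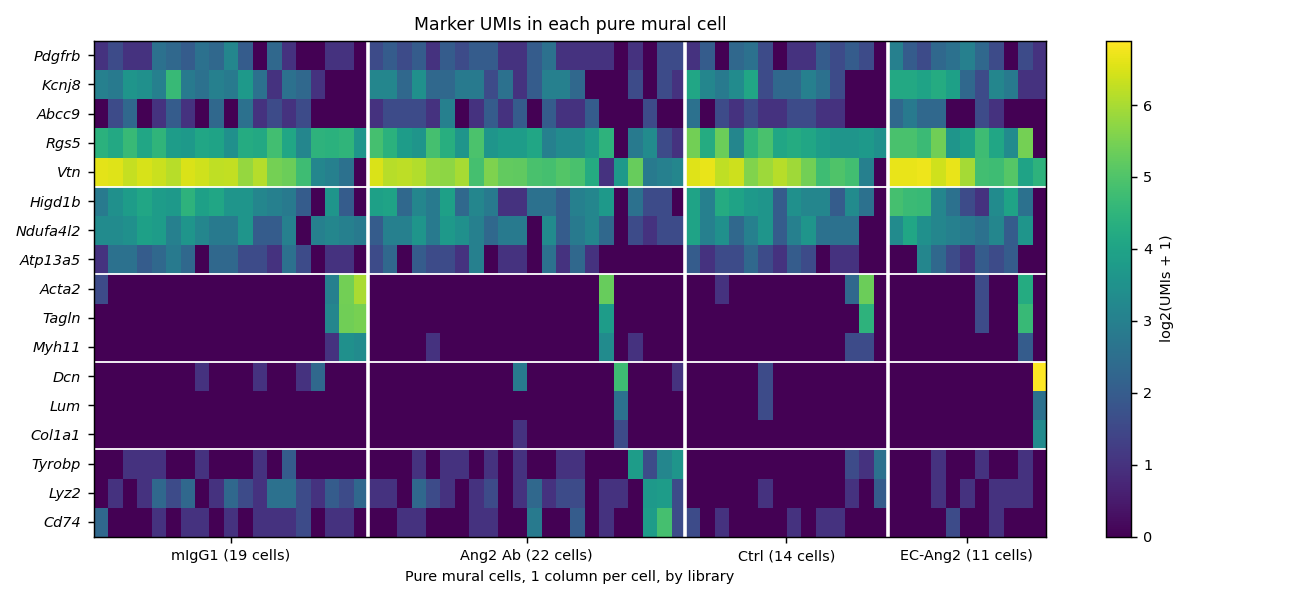
Each column is 1 of the 66 pure mural cells, grouped by library, each row is a gene, and the color gives log2(UMIs + 1). *Vtn* and *Rgs5* run through nearly all columns, whereas *Acta2*, *Tagln*, and *Myh11* are confined to a few, and a few columns hold fibroblast or immune genes.

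Not all 66 cells bore out their label. In 6 cells (3 mIgG1 and 1 in each other library), *Acta2*, *Tagln*, and *Myh11* together had at least 10 UMIs, with a median of 39 *Acta2*, 6 *Vtn*, and 0 *Kcnj8* UMIs, so these were called contractile cells. A further 2 cells (1 Ang2 Ab and 1 *EC-Ang2*) held 12 and 21 *Vtn* UMIs without *Rgs5*, together with 26 and 118 UMIs of the fibroblast gene *Dcn*, and passed the rule through *Vtn*. Another 5 cells (4 Ang2 Ab and 1 Ctrl) held at least 10 UMIs of 5 immune genes outside the rule, and the Ctrl cell among them had 10 *Rgs5* UMIs and none of the other 4 markers. The other 53 cells had a median of 92 marker UMIs. Scrublet, which scores likely doublets, marked 4 of the 22 Ang2 Ab cells. From the immune genes, RNA released by broken cells (free RNA) was put at 5.85%, 26.2%, 10.5%, and 4.53% of the UMIs in mIgG1, Ang2 Ab, Ctrl, and *EC-Ang2*, with the Ang2 Ab value including the cells with immune RNA. Such free RNA alone would give an average endothelial sum of 0.721, 2.86, 0.837, and 0.608 UMIs per cell.

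Markers of other cell types were mostly low in pure mural cells. The rule itself keeps 4 of the 13 endothelial markers and 3 of the 8 immune markers low. Endothelial markers summed to 1476, 2176, 2230, and 1042 CPM, against 25618 to 37079 CPM in endothelial barcodes, and *Pecam1*, which encodes CD31 and is outside the rule, had 1, 2, 1, and 0 UMIs. Immune markers summed to 1054, 3314, 1469, and 579 CPM. Fibroblast markers (7 genes) summed to 406, 904, 157, and 3518 CPM, and 1 cell held most of those in *EC-Ang2*. Of 6 astrocyte markers, the glutamate transporter gene *Slc1a3* had 1, 2, 1, and 19 UMIs, the 19 lying in 2 cells, *Gja1* had 2 UMIs in *EC-Ang2*, and *Gfap*, *Aqp4*, *Slc1a2*, and *Aldoc* were at 0 in all 4 libraries, as were all 5 neuron markers.

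The 901 members with endothelial RNA were of different kinds, told apart by the 4 markers other than *Rgs5*. This split was chosen after the values were seen. With 10 or more UMIs of *Pdgfrb*, *Kcnj8*, *Abcc9*, and *Vtn*, 385 members (42.7%) are called pericyte/EC barcodes (105 mIgG1, 117 Ang2 Ab, 99 Ctrl, and 64 *EC-Ang2*). *Vtn* was detected in all of these, *Pdgfrb* in 87.6–89.1% by library, *Kcnj8* in 80.0–92.9%, and *Abcc9* in 68.8–75.8%. By contrast, 399 members (44.3%; 85, 104, 146, and 64 by library) had 0 to 2 such UMIs, 248 of them none, and are called *Rgs5* barcodes. The remaining 117 lay between with 3 to 9. Pericyte/EC barcodes were 1.49% of cells in Ctrl (1.22–1.82%) and 1.18% in *EC-Ang2* (0.911–1.51%), with overlapping intervals. *Rgs5* barcodes were 2.20% (1.86–2.59%) and 1.18% (0.911–1.51%), and those between 0.619% (0.444–0.838%) and 0.203% (0.101–0.363%). In these other kinds the intervals did not overlap, so the lower share in *EC-Ang2* lay mainly outside pericyte/EC barcodes. *Rgs5* was counted 0.341 times per *Vtn* UMI in pure mural cells (0.301 to 0.372 by library), 0.527 times in pericyte/EC barcodes, 3.66 times in those between, and 44.0 times in *Rgs5* barcodes, where it made up 96.7% of marker UMIs. The split itself sets the high values, since members with few UMIs of the other 4 markers reach the marker minimum through *Rgs5*.

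Pericyte/EC barcodes held transcripts of both cell types at high levels. Their median total was 7519, 5974, 7154, and 7489 UMIs in mIgG1, Ang2 Ab, Ctrl, and *EC-Ang2*, compared with 2930, 2525.5, 2496.5, and 4031 in pure mural cells. The 20 pericyte genes outside the rule summed to 5652, 5963, 6830, and 5462 CPM, below the 14909, 11448, 16372, and 14166 CPM of pure mural cells and above the 216, 271, 224, and 211 CPM of endothelial barcodes. Endothelial markers summed to 20696, 20291, 24554, and 17304 CPM. *Atp13a5* had 636 CPM in pure mural cells, 268 in pericyte/EC barcodes, 4.96 in *Rgs5* barcodes, and 0.334 in endothelial barcodes, and *Higd1b* had 2748, 1164, 83.5, and 2.36 CPM. Values of this class therefore mix the RNA of both cell types, and how both came into 1 droplet was not tested. Scrublet marked 16.2%, 12.8%, 2.02%, and 20.3% of pericyte/EC barcodes as likely doublets in mIgG1, Ang2 Ab, Ctrl, and *EC-Ang2* (17, 15, 2, and 13 barcodes). Of endothelial barcodes it marked 1.44%, 2.58%, 2.13%, and 1.28%. The comparisons below keep the marked barcodes. Relative to pure mural cells, the members with endothelial RNA as a whole stood highest in *Cldn5* (mean log2 ratio over the libraries 5.60), *Itm2a*, *Mal*, *Lsr*, *Slc2a1*, *Tmem252*, *Slc38a5*, *Rasip1*, *Abcb1a*, and *Lcn2*, among which are barrier and transporter genes of ECs. They stood lowest in *Slc7a11* (−4.04), the cystine transporter gene, which had 16.2, 50.2, 0, and 1111 CPM in the pure cells of mIgG1, Ang2 Ab, Ctrl, and *EC-Ang2*, and in *Ccdc80*, *Rdh5*, *Saa2*, *Pln*, *Gpm6b*, *Cybb*, *Adamtsl5*, and *Parm1*. These ratios had 0.5 UMIs added, and *Aldh1a2*, ranked there as well, had 0 UMIs in the pure cells of mIgG1, Ang2 Ab, and Ctrl and was higher in members with endothelial RNA in *EC-Ang2* (43.2 and 23.1 CPM), so its rank rests on that addition.

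The *Rgs5* barcodes went against the mural label in genes outside the rule. Their pericyte genes summed to 596, 570, 582, and 505 CPM, and their endothelial markers to between 27953 and 38043 CPM, close to the 25618 to 37079 CPM of endothelial barcodes. *Rgs5* itself had 2530 CPM in them, 5540 in pure mural cells, and 13.2 in endothelial barcodes, whereas *Vtn* had 57.5, 16250, and 6.48. Besides *Rgs5* (7.53), the genes highest over endothelial barcodes (mean log2 ratio) included *Myl9* (5.53), *Vtn* (3.10), and *Cald1* (2.68), the gene of an actin-binding protein of contractile cells. Among all barcodes with endothelial RNA and at most 2 UMIs of the other 4 markers, 20.1% held an *Rgs5* UMI and 3.03% (367 of 12105) at least 10. In immune barcodes, which should lack the gene, these shares were 3.95% and 0.0380% (2 of 5269). With every barcode thinned to 2000 UMIs, the shares with an *Rgs5* UMI were 14.2% and 1.12% (median totals before thinning 4409 and 8318 UMIs). *Rgs5* was thus counted more often in endothelial than in immune barcodes, the source of these transcripts was not tested, and these members are kept apart from the pericytes below.

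**Figure D3:**
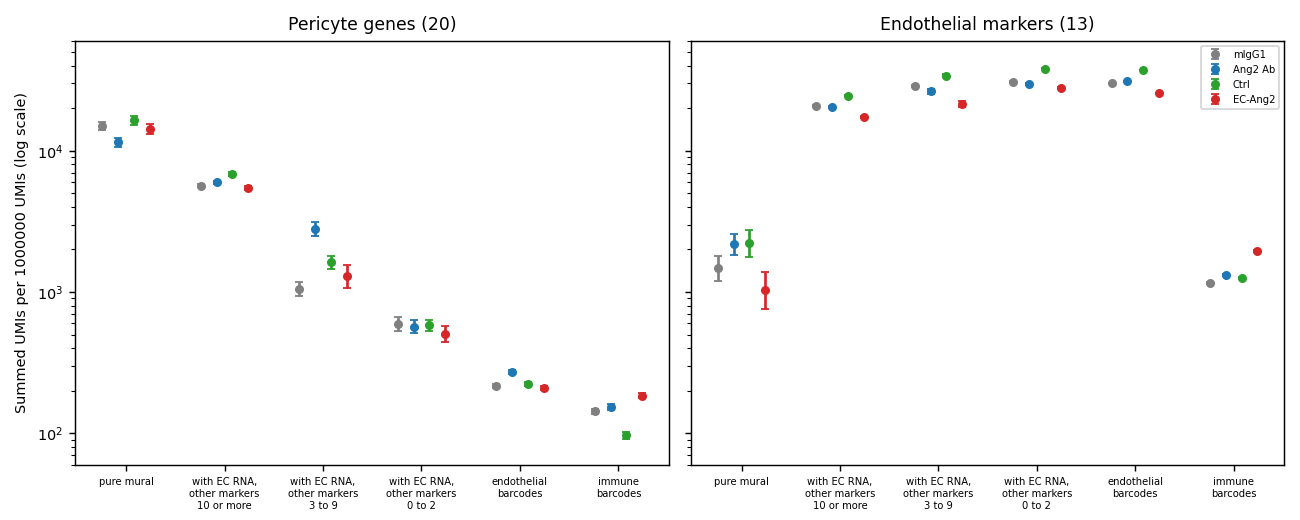
Points give the summed CPM (log scale) of the 20 pericyte genes and of the 13 endothelial markers in each class, colored by library, with exact 95% Poisson intervals for counting error. Pericyte genes are highest in pure mural cells, lower in pericyte/EC barcodes (other markers 10 or more) and in *Rgs5* barcodes (0 to 2), and lowest in endothelial and immune barcodes, whereas the endothelial markers are low in pure mural cells and immune barcodes and alike in *Rgs5* and endothelial barcodes.

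To ask whether mural cells differed with endothelial Ang2 overexpression, *EC-Ang2* was compared with Ctrl, first in pure mural cells (43203 and 38113 UMIs). Genes were compared if the pair held at least 50 UMIs of them and 10% of cells in either library were positive, and list members were followed from 10 UMIs on. Interferon-induced genes stood higher in *EC-Ang2*. All 17 genes of this list together had 620 UMIs (14351 CPM, interval 13243 to 15526) in *EC-Ang2* and 124 UMIs (3253 CPM, 2706 to 3879) in Ctrl. Of the 17, 12 had at least 10 UMIs. Of these 12, 5 had none in Ctrl and *Isg15* had 5, so at least these met the minimum through *EC-Ang2* alone. The count of intervals and the median of this list therefore lean on members that entered by being high in *EC-Ang2*. Intervals were above 0 in all 12 and in 6.78% of the 1461 genes with 10 UMIs. Of the 5 members below the minimum, *Irf7* had 6 and 3 UMIs, *Irgm1* 8 and 1, *Cd274* 1 and 0, and *Gbp4* and *Gbp5* 0 and 1 each. Of the 12, 3 also met the 50-UMI minimum, and all 3 were at least 1.5-fold higher, as were 12.7% of 213 genes compared. Among these 3, *Isg15* (57 and 5 UMIs) met that minimum through *EC-Ang2* alone. Without the cells of contractile, fibroblast, or immune genes, 1 list member was compared, and it was higher (21 of 150 genes compared). The median log2 ratio of the list was 2.37 with genes at 0 UMIs entered at 3, beside −0.01 over all genes with 10 UMIs. The median of all genes compared was shifted by −0.11 in this pair.

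Guanylate-binding protein 2, the IFIT proteins, and ISG15 are products of genes induced by interferons. *Isg15*, a ubiquitin-like modifier, had 57 UMIs in *EC-Ang2* (1319 CPM) and 5 in Ctrl (131 CPM), a log2 ratio of 3.33 (2.02 to 5.01). It was detected in 7 of 11 and 3 of 14 cells, and 22 of the 57 UMIs lay in the *EC-Ang2* cell with fibroblast genes described above. *Ifit3* had 42 UMIs in 6 *EC-Ang2* cells and none in Ctrl, which is 12.4-fold higher with Ctrl entered at a floor of 3 UMIs. *Ifit1*, *Gbp2*, *Gbp3*, and *Irf1* likewise had 25, 21, 18, and 12 UMIs in *EC-Ang2* and none in Ctrl (7.35-, 6.18-, 5.29-, and 3.53-fold higher on that floor). Folds on the floor do not take in the counting error of *EC-Ang2*. Without the cells of contractile, fibroblast, or immune genes, *Ifit3* had 21 UMIs and *Gbp2* 10 in *EC-Ang2* and none in Ctrl (7.09- and 3.37-fold higher on the same floor). *Ifitm3*, which encodes a membrane protein that restricts viral entry and had most UMIs of the list in every library, was detected in every cell of both libraries, with 7569 and 2440 CPM (1.63, 1.30 to 1.98), and *Iigp1*, an interferon-inducible GTPase, had 926 and 262 CPM (1.82, 0.79 to 2.98). The genes thus differed both where a few cells carried them and where all did.

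The 200 bases before the annotated start of 4 of these genes, chosen after their values were seen, are given below because they share a motif. Interferon-stimulated genes are known for response elements that hold repeats of GAAA, and GAAA followed by any 2 bases and a further GAAA, or the same with TTTC as read on the other strand, is in capitals. The sequences are from RefSeq on GRCm38.p6, 5′ to 3′ along each gene. They lie at chr3:142620463-142620662 (+) for *Gbp2*, chr19:34640689-34640888 (+) for *Ifit1*, chr19:34583329-34583528 (+) for *Ifit3*, and chr4:156200819-156201018 (−) for *Isg15*.
Gbp2: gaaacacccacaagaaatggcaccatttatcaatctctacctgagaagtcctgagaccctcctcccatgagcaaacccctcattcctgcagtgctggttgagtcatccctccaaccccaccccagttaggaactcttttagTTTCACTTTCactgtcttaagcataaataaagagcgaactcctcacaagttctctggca
Ifit1: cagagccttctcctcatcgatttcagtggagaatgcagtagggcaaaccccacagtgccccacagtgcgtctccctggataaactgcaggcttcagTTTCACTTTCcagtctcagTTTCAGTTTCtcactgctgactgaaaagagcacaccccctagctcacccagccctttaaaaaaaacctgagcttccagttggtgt
Ifit3: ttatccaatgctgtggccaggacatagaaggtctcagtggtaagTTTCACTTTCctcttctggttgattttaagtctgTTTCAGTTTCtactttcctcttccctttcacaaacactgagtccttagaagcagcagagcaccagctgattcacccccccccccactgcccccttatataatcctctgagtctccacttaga
Isg15: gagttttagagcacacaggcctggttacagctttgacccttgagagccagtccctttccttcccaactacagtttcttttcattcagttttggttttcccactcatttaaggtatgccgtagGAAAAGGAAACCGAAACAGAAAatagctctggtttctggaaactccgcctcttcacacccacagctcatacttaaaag
*Gbp2* holds 1 match, which starts 59 bases before the gene start. *Ifit1* and *Ifit3* hold 2 each, the farther starting 104 and 156 bases before, and *Isg15* holds 3 that overlap, the farthest at 78 bases. Of the windows of this length before all gene starts, 746 of 32851 (2.27%) held the motif, compared with 10 of 16 for the interferon list (62.5%), 3 of 12 for the MHC class I list, and 0 of 32 for the pericyte list. A match is a description of letters and not a bound site.

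Individual cells overlapped between the libraries. The summed interferon list had a lowest, median, and highest value per pure mural cell of 811, 2701, and 6586 CPM in Ctrl and of 797, 11908, and 26825 CPM in *EC-Ang2*. In mIgG1 the values were 684, 9030, and 24246 CPM and in Ang2 Ab 231, 6064, and 33852 CPM. The highest Ctrl cell thus lay below the median *EC-Ang2* cell. A barcode of Ctrl with 8 marker UMIs, just outside the rule, carried 83 *Isg15*, 25 *Gbp2*, 18 *Ifit1*, and 17 *Ifit3* UMIs among 2401, so that the Ctrl level of these genes depends on whether that cell is counted. With a marker minimum of 5, which takes it in, the list median was 1.24 and the log2 ratio of *Isg15* was −0.72. Without the cells of contractile, fibroblast, or immune genes, 9 of 12 list members had intervals above 0 (5.84% of 1130 genes) and the median was 1.95. Of these 12, 5 had no UMIs in Ctrl, so at least these 5 met the 10-UMI minimum through *EC-Ang2* alone.

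The much larger number of UMIs in pericyte/EC barcodes (564668 in *EC-Ang2* and 755077 in Ctrl) allowed more genes to be followed. There, 16 of 16 interferon-induced genes compared were at least 1.5-fold higher in *EC-Ang2*, as were 8.31% of 4067 genes compared, with a list median of 1.17 beside −0.05 for all genes. Per cell, the summed list had a median of 4549 CPM in Ctrl (range 861 to 22644) and 9838 CPM in *EC-Ang2* (1728 to 30158), so cells again overlapped. These barcodes also hold endothelial RNA, so the other classes of the same libraries are given beside them. In endothelial barcodes, 10 of 17 were 1.5-fold higher (5.65% of 6741 genes compared) with a median of 0.65, and in *Rgs5* barcodes 12 of 16 (7.46% of 3753) with a median of 1.13. *Iigp1* had 678 and 75.5 CPM in pericyte/EC barcodes of *EC-Ang2* and Ctrl (log2 ratio 3.17, 2.76 to 3.60), compared with a log2 ratio of 1.78 (1.72 to 1.85) in endothelial barcodes. *Ifit1* had a log2 ratio of 0.78 (0.38 to 1.18), whereas in endothelial barcodes it was lower in *EC-Ang2* (−0.47, −0.55 to −0.38). *Ifit3* showed the same contrast (1.35, 0.96 to 1.75, and −0.16, −0.25 to −0.06). *Gbp2* was higher in both classes (2.21 and 1.78). In *Rgs5* barcodes, *Ifit1* and *Ifit3* were at 0.58 and 0.61. For these 2 *Ifit* genes the direction in both classes of members was thus opposite to that in endothelial barcodes, and this difference between classes was not tested across mice.

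**Figure D4:**
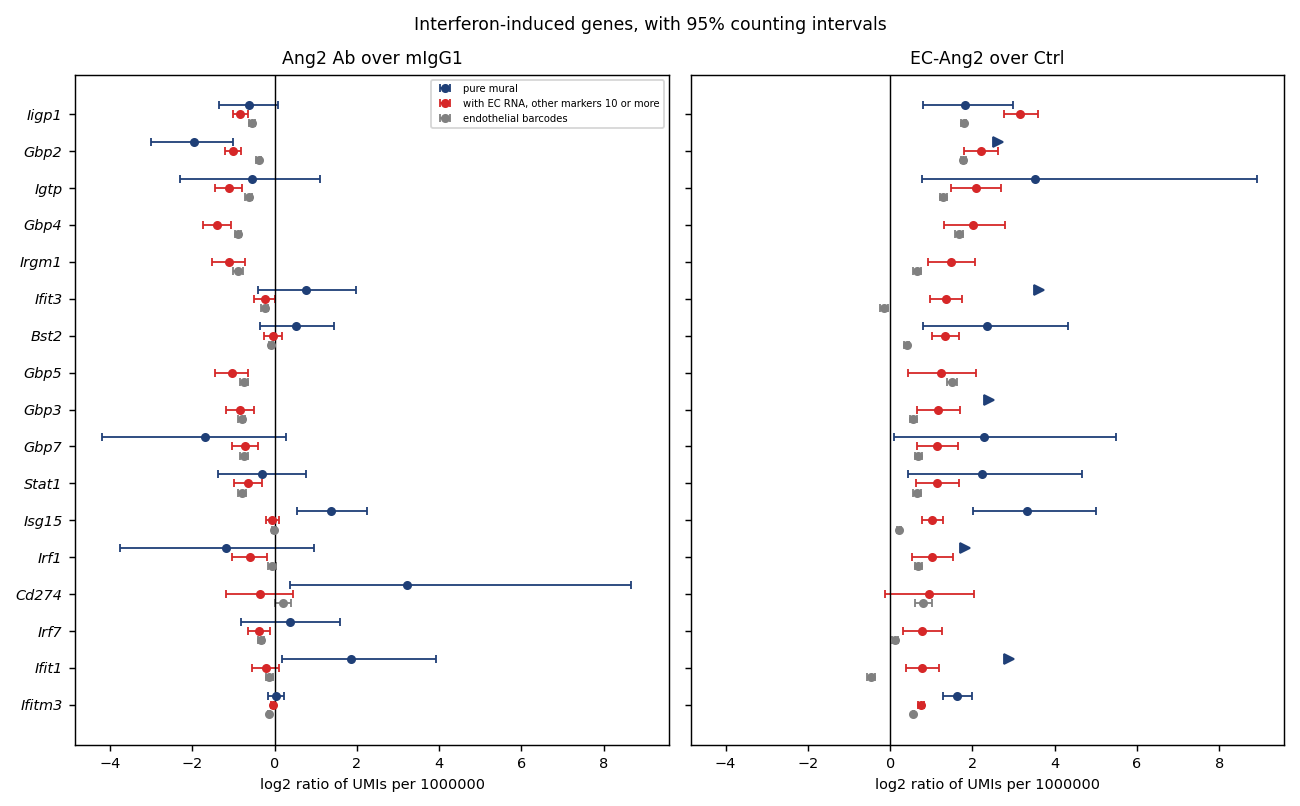
Points give the log2 ratio of CPM for each interferon-induced gene in pure mural cells, pericyte/EC barcodes (with EC RNA), and endothelial barcodes, for *EC-Ang2* over Ctrl and for Ang2 Ab over mIgG1, with exact 95% intervals for counting error. Triangles are lower bounds where Ctrl had 0 UMIs, and in *EC-Ang2* over Ctrl the mural points lie right of 0 whereas *Ifit1* and *Ifit3* of endothelial barcodes lie left of it.

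MHC class I genes, which present intracellular peptides, differed in the same direction. In pure mural cells, 4 of 7 followed had intervals above 0 (6.78% of genes followed), with a median of 1.36. *B2m*, the light chain, had 3565 CPM in *EC-Ang2* and 1391 CPM in Ctrl (log2 ratio 1.36, 0.90 to 1.84), and *Psmb8*, an immunoproteasome subunit gene, had 23 and 7 UMIs (1.54, 0.27 to 3.00). In pericyte/EC barcodes, 6 of 11 compared were 1.5-fold higher (8.31% of genes compared) with a median of 0.67, and in endothelial barcodes 7 of 12 (5.65%) with a median of 0.70. *B2m* differed by 0.43 (0.34 to 0.53) and 0.25 (0.24 to 0.27) in these classes.

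Chemokine, cytokine, and adhesion genes could be followed mainly in pericyte/EC barcodes, where 7 of 10 compared were at least 1.5-fold higher in *EC-Ang2* (8.31% of genes compared) and 1 was lower (9.74%), with a median of 2.17. *Cxcl10*, which attracts T cells, had 627, 306, 17.2, and 400 CPM in the 4 libraries, ordered as mIgG1, Ang2 Ab, Ctrl, *EC-Ang2*. *Ccl2*, which attracts monocytes, had 276, 156, 13.2, and 140 CPM, and *Ccl11*, an eosinophil chemokine, had 405, 366, 37.1, and 811 CPM. All 3 genes were thus lower in Ctrl than in *EC-Ang2*. The log2 ratios of *EC-Ang2* over Ctrl were 4.54 (3.74 to 5.47) for *Cxcl10*, 3.40 (2.45 to 4.52) for *Ccl2*, and 4.45 (3.90 to 5.06) for *Ccl11*. Few cells carried these transcripts: *Ccl11* was detected in 16 of 64 *EC-Ang2* and 12 of 99 Ctrl barcodes, and 1 barcode held 239 of the 458 UMIs in *EC-Ang2*. *Il6* had 82 UMIs in *EC-Ang2* and 1 in Ctrl (6.78, 4.26 to 12.1), and 38 of the 82 lay in 1 barcode. *Cxcl12*, a chemokine made by vessel cells, went the other way, with 191 and 555 CPM (−1.54, −1.86 to −1.23), as in endothelial barcodes (−2.22). At least *Cxcl10*, *Ccl2*, *Ccl11*, and *Il6* met the UMI minimum for comparison through *EC-Ang2* alone. The count of higher genes in this list therefore leans on members that entered by being high in *EC-Ang2*. *Il6*, with 1 UMI in Ctrl, entered the list median in that way too.

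Fibroblast transcripts moved with these genes. Fibroblast markers, *Dcn* among them, summed to 191, 229, 54.3, and 816 CPM in the pericyte/EC barcodes of mIgG1, Ang2 Ab, Ctrl, and *EC-Ang2*, and 4 *EC-Ang2* barcodes but no Ctrl barcode had at least 10 UMIs of fibroblast genes. Leaving out all barcodes with at least 10 UMIs of contractile, fibroblast, or immune genes kept 92 of 99 Ctrl and 51 of 64 *EC-Ang2* barcodes. The count of chemokine and cytokine genes was then 4 of 7 higher and 1 lower (6.73% of 3507 genes compared were higher), with a median of 1.39. *Cxcl10* was at 4.45, *Ccl11* at 2.70, and *Ccl2* at 2.19 on the log2 scale, whereas *Il6* had 5 UMIs in *EC-Ang2* and none in Ctrl. The interferon list was at 15 of 15 with a median of 1.17. Its difference was thus as large without these barcodes, whereas that of *Ccl11* and *Ccl2* was smaller.

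Acute phase and complement genes were higher in pericyte/EC barcodes of *EC-Ang2* in 6 of 7 cases (8.31% of genes compared), with a median of 0.75. Without the barcodes named above, 5 of 6 were higher (6.73% of genes compared), with a median of 0.93, and in endothelial barcodes 6 of 7 (5.65%), with a median of 1.11. *Saa3*, a serum amyloid gene, had 170, 136, 7.95, and 213 CPM in mIgG1, Ang2 Ab, Ctrl, and *EC-Ang2* (log2 ratio of *EC-Ang2* over Ctrl 4.74, 3.58 to 6.22). *Serping1*, the complement C1 inhibitor gene, had 233, 203, 39.7, and 205 CPM (2.37, 1.78 to 3.00). In pericyte/EC barcodes, at least these genes met the UMI minimum for comparison through *EC-Ang2* alone, so the count of higher genes there leans on them. *Vcam1*, a leukocyte adhesion molecule gene, had 384, 165, 109, and 299 CPM (1.46, 1.07 to 1.86). *Lcn2*, which encodes lipocalin-2 and is abundant in inflamed ECs, had 2549 CPM in Ctrl and 2872 CPM in *EC-Ang2* (0.17, 0.08 to 0.27).

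**Figure D5:**
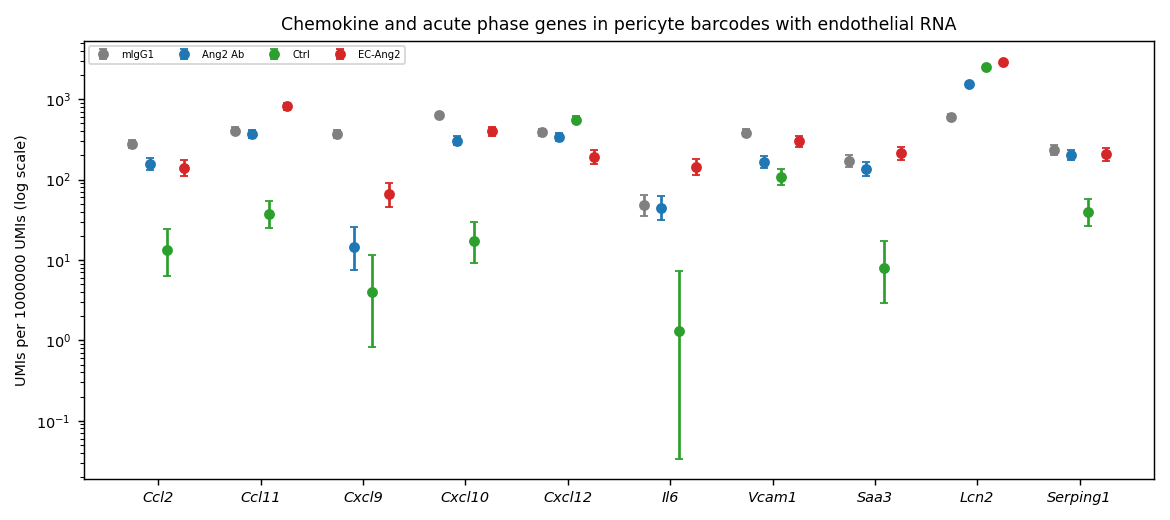
Points give CPM (log scale) of 10 chemokine, cytokine, adhesion, and acute phase genes in the pericyte/EC barcodes of each library, with exact 95% Poisson intervals for counting error. Within the overexpression pair, Ctrl is lower for *Ccl2*, *Ccl11*, *Cxcl9*, *Cxcl10*, *Il6*, *Vcam1*, *Saa3*, and *Serping1* and higher for *Cxcl12*.

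Genes of pericyte identity were followed in the same way. In pure mural cells, 1 of 7 pericyte genes compared was higher (12.7% of genes compared) and 1 lower (13.6%) in *EC-Ang2*, with a median of −0.12, and *Vtn* and *Rgs5* were at −0.27 and −0.31. In pericyte/EC barcodes, 4 of 18 were lower (9.74% of genes compared) and none higher (8.31%), with a median of −0.30. *Slc6a20a* had 175 and 283 CPM (−0.69, −1.05 to −0.34), and *Higd1b* 1119 and 1316 CPM (−0.23, −0.38 to −0.09). In pure mural cells *Slc6a20a* went the other way, with 810 CPM in *EC-Ang2* and 499 CPM in Ctrl (0.70, −0.14 to 1.59). The endothelial marker sum was also lower in *EC-Ang2* in this class (17304 and 24554 CPM). Without barcodes of contractile, fibroblast, or immune genes, 2 of 18 were lower (8.55% of genes compared) with a median of −0.12. Of 3 contractile genes compared in pure mural cells, 1 was lower (13.6% of genes compared) and none higher. In pericyte/EC barcodes 3 of 12 were higher (8.31% of genes compared) and 1 lower (9.74%), and *Tagln* had 154 and 38.4 CPM (2.00, 1.38 to 2.66) in 8 barcodes of each library.

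In pure mural cells, the genes that differed most between *EC-Ang2* and Ctrl, ranked by the interval bound nearest 0, were *Spp1*, *Apod*, *Isg15*, *Ifitm3*, *B2m*, *Serpinh1*, *Iigp1*, *Mgp*, *Gm13889*, and *Ifitm2* on the higher side. Of these, *Spp1* and *Apod* rested on the *EC-Ang2* cell with fibroblast genes and no *Rgs5* described above (7296 UMIs), which held 114 of 115 and 411 of 417 UMIs, along with 22 of 57 *Isg15* and 29 of 71 *Serpinh1* UMIs. *Serpinh1*, the collagen chaperone gene, had 1643 and 551 CPM (1.58, and 1.09 without that cell), and *Mgp*, encoding matrix Gla protein, 7962 and 3909 CPM (1.03). On the lower side stood *Dnajb1*, *Fos*, *Jun*, *Hspa1a*, *Cst3*, *Hspb1*, *Acta2*, *Jund*, *Rgs4*, and *Tmsb4x*, immediate early and heat shock genes among them. *Fos* had 50 and 222 UMIs, *Jun* 35 and 116, and *Hspa1a* 145 and 342. Immediate early genes as a list had 4 of 6 compared lower (13.6% of genes compared) with a median of −1.09. Without the cells of other genes 4 of 5 were lower (12.0% of genes compared), with *Fos* at −1.56 and *Jun* at −1.74, but *Junb* was at 0.74 and the median of the 13 members followed was 0.018. In pericyte/EC barcodes 1 of 15 immediate early genes was lower (9.74% of genes compared) with a median of −0.12. Leaving out, for each gene, the cell with most of its UMIs kept 15 of the 20 genes past 1.5-fold in the same direction.

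To ask how mural cells differed under Ang2 blockade, Ang2 Ab was compared with mIgG1. In pericyte/EC barcodes (824304 and 915058 UMIs), interferon-induced genes were lower in the Ang2 Ab library in 10 of 17 cases and higher in none, whereas 4.70% of 4954 genes compared were lower and 5.61% higher. The median was −0.65 beside 0.03 for all genes. *Gbp4*, a guanylate-binding protein gene, had 121 CPM in Ang2 Ab and 320 CPM in mIgG1 (log2 ratio −1.40, −1.74 to −1.07), *Igtp*, an immunity-related GTPase gene, 141 and 305 CPM (−1.12, −1.44 to −0.80), and *Gbp2* 383 and 776 CPM (−1.02, −1.21 to −0.82). *Isg15* and *Ifitm3* were at −0.05 and −0.04, with intervals that included 0. All 17 members were thus below 0, and they differed in size. In endothelial barcodes of the same libraries, 7 of 17 were lower (1.36% of 5974 genes compared), with a median of −0.39.

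Antigen presentation genes were lower in these barcodes as well. Of MHC class I genes, 7 of 12 were at least 1.5-fold lower in Ang2 Ab pericyte/EC barcodes, with a median of −0.70 (4.70% of genes compared), compared with 6 of 12 and −0.57 in endothelial barcodes (1.36%). *B2m* had 3098 CPM in Ang2 Ab and 5163 CPM in mIgG1 (−0.74, −0.81 to −0.67), and *H2-K1*, a heavy chain, 755 and 1295 CPM (−0.78, −0.92 to −0.64). In pure mural cells, 1 of 3 MHC class I genes compared was higher (14.1% of genes compared) and none lower, *H2-K1* having 603 and 357 CPM (0.76, −0.05 to 1.59), with 72.1% of its Ang2 Ab UMIs put down to free RNA, and the median of 10 members followed was −0.30. Without the cells of contractile, fibroblast, or immune genes, 1 of 2 was lower (10.3% of genes compared), *H2-K1* was at −0.07, and the median of 9 members followed was −0.41, all of them below 0. MHC class II genes, typical of professional antigen-presenting cells, were lower in pericyte/EC barcodes in 3 of 4 cases (4.70% of genes compared), with a median of −0.76. In pure mural cells, by contrast, the 4 members followed stood higher in Ang2 Ab. Immune markers there summed to 3314 CPM in Ang2 Ab and 1054 CPM in mIgG1, and *Cd74* had 57 and 15 UMIs (1.97, 1.13 to 2.90). One of the cells with immune genes held 28 of the 57, the free RNA estimate exceeded the *Cd74* UMIs of both libraries (156% and 168%), and without the cells of other genes *Cd74* had 13 UMIs in each (0.25, −0.98 to 1.48). Of chemokine and cytokine genes, 6 of 12 were lower in pericyte/EC barcodes (4.70% of genes compared), with a median of −0.44, among them *Cxcl10* (−1.04, −1.26 to −0.82), *Ccl2* (−0.82, −1.14 to −0.51), and *Vcam1* (−1.22, −1.51 to −0.93). *Cxcl9*, an interferon-γ–induced chemokine gene, had 12 and 337 UMIs, of which 162 in mIgG1 lay in 1 barcode. In pure mural cells 1 of 3 compared was higher (14.1% of genes compared) and none lower, with a median of 0.70 over 6 members followed, and 0.36 over 4 without the cells of other genes. *Ccl2* was at 0.91 (0.12 to 1.73), but it was detected in 3 Ang2 Ab and 4 mIgG1 cells, and 1 cell of each library held 29 of 40 and 16 of 22 UMIs, so its ratio rests on few cells.

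Immune transcripts moved with this comparison too. Of the mIgG1 pericyte/EC barcodes, 36 of 105 had at least 10 UMIs of the 5 immune genes outside the rule, compared with 8 of 117 in Ang2 Ab, and the 8 immune markers summed to 1066 and 688 CPM, with 424 and 480 CPM in Ctrl and *EC-Ang2*. Without barcodes of contractile, fibroblast, or immune genes, 64 mIgG1 and 99 Ang2 Ab barcodes remained. The interferon list was then lower in 5 of 16 cases (5.71% of 3398 genes compared) with a median of −0.41, the MHC class I list in 4 of 11 with a median of −0.46, and the MHC class II list in 2 of 4 with a median of −0.57. Of the 17 interferon-induced genes followed, 11 were below 0, 9 of them with intervals below 0, but 6 turned above 0, 3 with intervals above 0. Over all 8423 genes followed, 358 intervals lay below 0 and 373 above. Of the chemokine and cytokine list, *Vcam1* alone of 8 was lower, and *Icam1*, also an adhesion molecule gene, was at 0.62 (0.14 to 1.12). *Cxcl10* was at −0.36 (−0.65 to −0.07) and *Igtp* at −0.41 (−0.91 to 0.09), whereas *Vcam1* was at −1.23 and *B2m* at −0.69. Part of the differences in interferon and chemokine genes was thus not seen without these barcodes, and the part of immune RNA in the rest was not tested.

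*Lcn2* was higher in the Ang2 Ab pericyte/EC barcodes, with 1550 CPM and 600 CPM in mIgG1 (1.37, 1.22 to 1.52), and was at 0.54 in endothelial barcodes. Of the acute phase and complement genes, 3 of 9 compared were higher (5.61% of genes compared) and none lower. Of the 10 followed, 6 were below 0, with a median of −0.17. Without barcodes of contractile, fibroblast, or immune genes, 1 of 7 compared was higher (238 of 3398 genes compared) and 2 were lower (5.71%). *Id1*, a target of BMP signaling, had 791 and 422 CPM (0.91, 0.72 to 1.09). Pericyte genes were nearly level, with 1 of 18 higher (5.61% of genes compared), 1 lower (4.70%), and a median of 0.12, so that both counts were near the background. These were *Ggt1*, a gamma-glutamyltransferase gene (65.5 and 41.5 CPM, 0.66, 0.03 to 1.30), and *Slc6a20a* (220 and 379 CPM, −0.79, −1.06 to −0.52). Without barcodes of contractile, fibroblast, or immune genes, 3 of 18 were lower (5.71% of genes compared) and the median turned to −0.25.

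In the 22 Ang2 Ab and 19 mIgG1 pure mural cells (59748 and 61641 UMIs), the direction of the interferon list was not that of the pericyte/EC barcodes. Of 4 genes compared, 1 was higher (14.1% of 354 genes compared) and 2 lower (13.6%), with a median of 0.03 beside 0.04 for all genes. *Gbp2* had 12 and 48 UMIs (−1.96, −3.00 to −1.02), but 34 of the 48 lay in 1 mIgG1 cell, without which its log2 ratio was −0.29. *Isg15* had 45 and 18 UMIs (1.37). Pericyte genes were lower in 3 of 9 cases (13.6% of genes compared) with a median of −0.30, and without the cells of other genes in 1 of 8 (10.3% of 253 genes compared) with a median of −0.29. Contractile genes were lower in 4 of 6 (13.6% of genes compared), with a median of −1.13. However, *Acta2* (38 and 115 UMIs) and *Tagln* (13 and 93) lay in 1 Ang2 Ab cell and in 4 and 3 mIgG1 cells, and without the cells of other genes the median was 0.15. Among the 10 genes farthest on the higher side were *Apod*, *Wfdc17*, *Ccl6*, *Ccl5*, *Cstb*, *Prdx5*, *Rps24*, *Cyba*, and *Ftl1*, several of them macrophage genes, and immune markers had a median of 2.89. On the lower side stood *Tagln*, *Gbp2*, *Acta2*, *Crip1*, *Slc19a1*, *Gja4*, *Meg3*, *Calm2*, *Id3*, and *Tpm1*. Leaving out the cell with most UMIs of each gene kept 11 of these 19 past 1.5-fold. Immediate early genes were lower in 3 of 9 cases (13.6% of genes compared) and higher in none, with 14 of 15 followed below 0 and a median of −0.50. Without the cells of other genes 1 of 6 was lower (10.3% of genes compared), with a median of −0.20. In pericyte/EC barcodes 1 of 15 was higher (5.61% of genes compared) and none lower, with a median of 0.18.

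The genes of the angiopoietin pathway itself were sparse in pure mural cells. *Angpt1*, the gene of the Tie2 agonist, had 0 UMIs in all 4 libraries, where 3 UMIs is the limit that a count of 0 allows. *Tek*, which encodes Tie2, had 0, 2, 0, and 0 UMIs, and *Angpt2*, which encodes Ang2, had 1, 4, 2, and 3 UMIs in mIgG1, Ang2 Ab, Ctrl, and *EC-Ang2*. In endothelial barcodes, *Angpt2* had 46.7, 291, 63.5, and 1066 CPM. *EC-Ang2* thus stood above Ctrl, and Ang2 Ab above mIgG1. Pericyte/EC barcodes followed with 50.3, 254, 38.4, and 391 CPM. With 38113 to 61641 UMIs in this class per library, a lower level of *Angpt1* was not detectable.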

How the data were processed

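Libraries of CD45+ and CD31+ cells from EAE SCs were made on the 10x Genomics platform and sequenced on an Illumina instrument. The authors deposited UMI counts per gene and barcode, not normalized and with empty droplets included; the submitters' processing notes name Cell Ranger 2.1.1, Seurat 2.3.4, and mm10, and their Seurat steps, which removed pericytes by gating of the t-SNE plot, were not used here. Members were taken from the deposited counts by the rule given above, without removal of doublets. Members, the 23 gene lists, and comparisons were chosen with earlier results of these data known. Counts were summed per class and library. Ratios carry exact conditional binomial intervals, shares Clopper-Pearson intervals, and sums Poisson intervals, all at 95% and for counting error only. No test was made, because each condition had 1 library. Named genes were list members, the 10 higher and 10 lower genes of each pair with the interval bound farthest from 0 (leaving out genes with 50% or more of their UMIs from free RNA in the library with the higher level), and the leading genes of each class; 1 gene of this ranking is not reported here. Free RNA was estimated from droplets of 10 to 100 UMIs. Scrublet was run at a doublet rate of 0.8% per 1000 barcodes. Other marker, UMI, and immune or endothelial limits, pooling of both classes, Scrublet removal, and removal of cells of other genes were tried as alternatives. Promoter sequences were from RefSeq (GRCm38.p6). Python 3.11.15, NumPy 2.4.6, SciPy 1.17.1, pandas 2.3.3, Scanpy 1.11.5, and Matplotlib 3.10.9 were used, and the computations were tested on simulated counts.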

Additional observations from a re-analysis of the deposited data

How the results depend on the processing

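No paired analysis was possible because each condition has 1 library. Depth limits the pure mural class most: 38113 to 61641 UMIs per library leave most list members under the 50-UMI minimum, and single cells can carry a gene. Of 32 shares recomputed, 25 stayed within their intervals. With a UMI minimum of 3000 the shares were 0.130% in mIgG1, 0.0844% in Ang2 Ab, and 0.0536% in Ctrl, and with no endothelial UMI allowed 0.0143%, 0.0401%, and 0.0302%, with 0.0554% in *EC-Ang2*. Of 52 counts of genes past 1.5-fold in pure mural cells, 30 stayed within 1.5 times. For Ang2 Ab over mIgG1 the count of higher genes (50) was 21 with a marker minimum of 20, 18 with no immune UMI allowed, 10 with no endothelial UMI allowed, 26 after Scrublet removal, 24 without cells of other genes, 291 with both classes pooled, and 164 with a 20-UMI minimum and no minimum share of cells; the count of lower genes (48) was 27, 24, 3, 26, 271, and 190 under the same settings other than Scrublet removal. For *EC-Ang2* over Ctrl, higher genes (27) numbered 6 with no endothelial UMI allowed, 443 pooled, and 134 with the 20-UMI minimum, and lower genes (29) numbered 6, 569, and 119, with 18 at a UMI minimum of 3000, 52 at 1000, and 18 without cells of other genes.

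Of 347 list medians recomputed, 312 stayed within the interval and 9 were counted as reversed, but the 9 do not hold every change of sign. With both classes pooled, Ang2 Ab over mIgG1 gave −0.77 for MHC class II, −0.28 for chemokines and cytokines, 0.24 for contractile genes, and −0.053 for immune markers, and *EC-Ang2* over Ctrl gave −0.024 for PDGF, TGF-β, and Notch genes and 0.18 for tone receptors and channels. Without cells of other genes, contractile genes were at 0.15 in Ang2 Ab over mIgG1 and immediate early genes at 0.018 in *EC-Ang2* over Ctrl, and with no endothelial UMI allowed the latter were at 0.86. Outside the 9, removing cells of other genes turned immune markers from 2.89 to −0.14 in Ang2 Ab over mIgG1. In *EC-Ang2* over Ctrl it turned them from −1.31 to 1.34. In Ang2 Ab over mIgG1 it also turned fibroblast markers from 0.81 to −0.43 and basement membrane genes from −0.15 to 0.03. Among the 39 named genes, 20 changed sign under at least 1 setting. In Ang2 Ab over mIgG1, pooling gave *Acta2* 0.59, *Tagln* 0.44, *Id3* 0.47, *Ccl5* −0.24, *Cyba* −0.13, *Ftl1* −0.017, and *Rps24* −0.23; without cells of other genes *Id3* was at 1.34, *Tpm1* at 0.25, and *Prdx5* at −0.75. *Prdx5* was also at −0.064 with a marker minimum of 20, −0.13 with no immune UMI, and −0.10 after Scrublet removal, *Cstb* at −0.25 with no endothelial UMI, *Apod* at −0.22 with a UMI minimum of 3000, and *Ccl5* at −0.12 without its top cell. In *EC-Ang2* over Ctrl, pooling gave *Acta2* 0.47, *Jund* 0.31, and *Tmsb4x* 0.12; no endothelial UMI gave *Fos* 1.40, *Jund* 0.33, *Ifitm2* −0.26, and *Mgp* −0.97; a UMI minimum of 3000 gave *Rgs4* 0.050 and *Tmsb4x* 0.018; and *Isg15* was at −0.72 with a marker minimum of 5. *Apod* was at −1.72 without cells of other genes and −1.65 without its top cell, and *Acta2* at 1.67 without its top cell. Apart from the single cells named, the cause was not tested. The interferon list of *EC-Ang2* over Ctrl kept its sign under every setting run, with medians from 1.01 to 2.51.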

Other observations

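Other gene groups were followed in pericyte/EC barcodes, where 5.61% of genes compared were higher and 4.70% lower in Ang2 Ab over mIgG1, and 8.31% higher and 9.74% lower in *EC-Ang2* over Ctrl. Of basement membrane genes, 0 of 13 compared were past 1.5-fold in Ang2 Ab over mIgG1, with a median of −0.16. Of the 16 followed, 4 had intervals below 0 and 1 above (424 and 502 of 9627 genes followed). In *EC-Ang2* over Ctrl 2 of 12 compared were higher and none lower, with a median of 0.16. Type IV collagen, the main network collagen of the vessel basement membrane, stood higher in *EC-Ang2*, with *Col4a1* at 436 and 294 CPM (0.57, 0.30 to 0.84) and *Col4a2* at 313 and 168 CPM (0.90, 0.56 to 1.24). Of hypoxia and glycolysis genes, 2 of 8 were higher and 1 lower in *EC-Ang2*, with a median of 0.47. *Adm*, which encodes the vasodilator peptide adrenomedullin, had 298 and 130 CPM (1.20, 0.83 to 1.57), and *Slc2a1*, the glucose transporter gene of barrier ECs, had 1601 and 3255 CPM (−1.02, −1.14 to −0.91). In Ang2 Ab over mIgG1, 0 of 8 were past 1.5-fold, with a median of 0.15. Genes of PDGF, TGF-β, and Notch signaling had 3 of 20 higher and 1 lower in Ang2 Ab (median 0.10) and 0 of 16 past 1.5-fold in *EC-Ang2* (median −0.02), and receptors and channels of vessel tone had 2 of 7 higher in Ang2 Ab (median −0.02) and 0 of 7 past 1.5-fold in *EC-Ang2* (median −0.14). Without barcodes of contractile, fibroblast, or immune genes, 0 of 7 vessel tone genes were past 1.5-fold in Ang2 Ab, with a median of −0.15.

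*Gm13889*, among the leading genes of pure mural cells, was higher in *EC-Ang2* than in Ctrl in pure mural cells (1597 and 656 CPM, 1.28, 0.60 to 2.01) and in pericyte/EC barcodes (930 and 417 CPM, 1.16, 0.95 to 1.36). In pure mural cells 1 cell held 28 of its 69 *EC-Ang2* UMIs, and without that cell the log2 ratio was 0.70 (−0.05 to 1.48). *Meg3* was higher in the pericyte/EC barcodes of *EC-Ang2* (473 and 246 CPM, 0.94, 0.67 to 1.22). Cycling genes had 5, 5, 2, and 0 UMIs in the pure mural cells of mIgG1, Ang2 Ab, Ctrl, and *EC-Ang2*. Red blood cell genes summed to 9159 CPM in Ctrl pericyte/EC barcodes, where 1 barcode held 2581 of 3063 *Hbb-bs* UMIs. Oligodendrocyte, Schwann cell, and neuron markers had at most 2 members with 10 UMIs in pericyte/EC barcodes in either pair.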
